A study of Mus musculus with 11 samples.

Results

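The transcription factors that establish B cells, hold them in that state and turn them into plasma cells were followed across 11 mouse lymphomas. The set held 10 genes, namely Pax5, Ebf1, Spib, Pou2af1, Irf4, Irf8, Bcl6, Prdm1, Xbp1 and Foxp1. Every probe set annotated to only 1 of these genes was taken, which gave 24 of the 22626 non-control probe sets and 10 of the 12393 genes that had a probe set of their own. Foxp1 was read by 7 probe sets, Xbp1 by 4, Ebf1 by 3, Irf4, Irf8 and Bcl6 by 2 each, and Pax5, Spib, Pou2af1 and Prdm1 by 1 each. Probe sets of 1 gene read the same transcripts and are not independent of each other.

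All 11 tumours arose in mice of the FVB background that carried the E-mu-BRD2 transgene, in which the enhancer of the immunoglobulin heavy chain locus drives BRD2 in B cells. BRD2 is a bromodomain protein that binds acetylated histones. The labels sort the tumours by severity into a marginal class (n = 6) and a transitional class (n = 5), and record oligoclonal immunoglobulin for each of them. The spleen of marginal 1 was graded marginal, those of marginal 2 to 4 and of transitional 3 mild, those of marginal 5 and 6 moderate, those of transitional 4 and 5 moderately severe, and those of transitional 1 and 2 severe. The recorded sign was a tumour of the neck in marginal 1, of the leg in marginal 4 and of the haunch in marginal 5, paralysis in marginal 6, and failure to nest in the other 7 animals. The design also names another severity class and resting and activated B cells, which are not analysed here, so that no array without the transgene stood beside these. Ages, and the tissue that gave each RNA, are not given in the sources used here. Below, spleens of a grade stand for the arrays of animals with that grade, not for RNA known to come from spleen.

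B cells form in the bone marrow when EBF1 and PAX5 switch on the genes of the B cell receptor complex and close off other blood lineages. In mature B cells SPIB, a relative of PU.1, and POU2AF1, the coactivator OCA-B that binds octamer factors, keep receptor signalling and germinal centre responses running, and BCL6 holds the germinal centre state. IRF4 and the repressor PRDM1, also called BLIMP-1, end that state, with PRDM1 shutting down PAX5 and BCL6, and XBP1 enlarges the secretory pathway of the plasma cell that results.

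The promoter windows below show the start sites of 5 of the genes, because Spib and Pou2af1 gave the largest log2 differences between moderately severe and other spleens, Prdm1 shared a short element with them, and Pax5 and Xbp1 held none of the elements searched. They are RefSeq sequences of build GRCm38.p6, each with 250 bases before and 50 bases from a transcript start, written 5′ to 3′ on the strand of the gene. The Spib window is chr7:44532022-44532321 on the minus strand, the Pou2af1 window chr9:51213440-51213739 on the plus strand, and the Prdm1 window chr10:44458699-44458998 on the minus strand. The Pax5 window is chr4:44710645-44710944 on the minus strand and the Xbp1 window chr11:5520391-5520690 on the plus strand. Capitals mark the octamer without its first base (TGCAAAT, on either strand) and the core of the unfolded protein response element (TGACGTG).
Spib: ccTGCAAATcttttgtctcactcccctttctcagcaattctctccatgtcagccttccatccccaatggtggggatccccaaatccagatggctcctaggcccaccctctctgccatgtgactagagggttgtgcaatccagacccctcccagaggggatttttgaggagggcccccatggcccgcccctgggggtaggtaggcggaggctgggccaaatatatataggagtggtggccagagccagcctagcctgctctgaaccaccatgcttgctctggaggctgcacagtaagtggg
Pou2af1: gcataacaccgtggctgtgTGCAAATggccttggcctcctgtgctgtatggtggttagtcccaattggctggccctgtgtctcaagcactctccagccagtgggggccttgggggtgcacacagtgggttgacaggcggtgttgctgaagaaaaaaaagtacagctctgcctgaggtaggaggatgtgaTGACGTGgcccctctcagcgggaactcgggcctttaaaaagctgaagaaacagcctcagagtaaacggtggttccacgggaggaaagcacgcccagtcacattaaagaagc
Prdm1: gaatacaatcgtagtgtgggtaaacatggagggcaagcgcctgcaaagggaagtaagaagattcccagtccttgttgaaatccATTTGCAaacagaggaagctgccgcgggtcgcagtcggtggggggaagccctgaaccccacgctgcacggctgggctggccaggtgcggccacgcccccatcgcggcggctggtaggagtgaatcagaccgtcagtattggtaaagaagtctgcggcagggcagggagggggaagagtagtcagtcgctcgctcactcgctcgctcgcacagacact
Pax5: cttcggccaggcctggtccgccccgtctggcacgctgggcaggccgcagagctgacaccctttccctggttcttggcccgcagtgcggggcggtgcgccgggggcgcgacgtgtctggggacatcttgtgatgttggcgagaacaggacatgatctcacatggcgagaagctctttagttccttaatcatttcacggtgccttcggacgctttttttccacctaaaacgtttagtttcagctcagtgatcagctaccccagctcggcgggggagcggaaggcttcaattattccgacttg
Xbp1: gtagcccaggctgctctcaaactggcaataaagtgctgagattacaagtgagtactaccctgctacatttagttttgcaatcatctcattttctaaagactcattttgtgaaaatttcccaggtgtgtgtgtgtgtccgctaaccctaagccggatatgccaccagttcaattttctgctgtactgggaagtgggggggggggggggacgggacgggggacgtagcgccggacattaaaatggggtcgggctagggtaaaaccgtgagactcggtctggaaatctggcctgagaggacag

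All 10 genes were matched to RefSeq, with 15 windows, and 6 motifs were searched on both strands after the windows were in hand. The full octamer ATGCAAAT stood in no window of the 10 genes and in 1.75% of all 32544 mouse windows, which leave out chromosome 18. Without its first base the octamer stood at bases 3 to 9 of the Spib window, at bases 20 to 26 of the Pou2af1 window and, on the opposite strand, at bases 84 to 90 of the Prdm1 window, against 4.04% of all windows. TGACGTG stood at bases 190 to 196 of the Pou2af1 window and in 2.02% of all windows. The paired half-sites CCCNNGGG, which EBF1 binds, stood in windows of Spib, Irf8 and Foxp1 and in 13.7% of all windows. The PU box core GAGGAA stood in windows of Ebf1, Pou2af1, Irf4, Bcl6, Prdm1 and Foxp1 and in 28.1% of all windows, while the E-box CAGCTG stood in none of theirs and in 16.4% of all. No binding was measured, and these matches are letters in a window.

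The values were MAS5 signals, which are array intensities scaled so that the 2% trimmed mean was equal on all 11 arrays (500.2). The median signal ran from 99.7 on transitional 5 and 108.6 on transitional 4 to 151.9 on transitional 2. Transitional 4 and 5 stood apart from the rest and were each other's nearest array (r = 0.952 over the tested probe sets). The summed signal of 6 genes of the B cell surface and receptor was 9629 on transitional 4 and 6132 on transitional 5, against 21575 to 78912 on the other 9 arrays. The summed signal of 7 erythroid genes was highest on the same arrays, at 78855 and 65004 against 1903 to 56393. Granulocyte precursor genes, a list of 7, summed to 93253 and 51097 on transitional 4 and 5, and to between 1794 and 139876 elsewhere, with marginal 1 highest and marginal 3 at 80388. Class differences and the tests over grades are therefore also given without them, and the part of these other cells in the results was not tested. In bulk RNA a smaller share of B cells and less RNA of a gene in each B cell cannot be told apart. The labels give no animal numbers, so the p-values measure the spread between these samples.

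**Figure D1:**
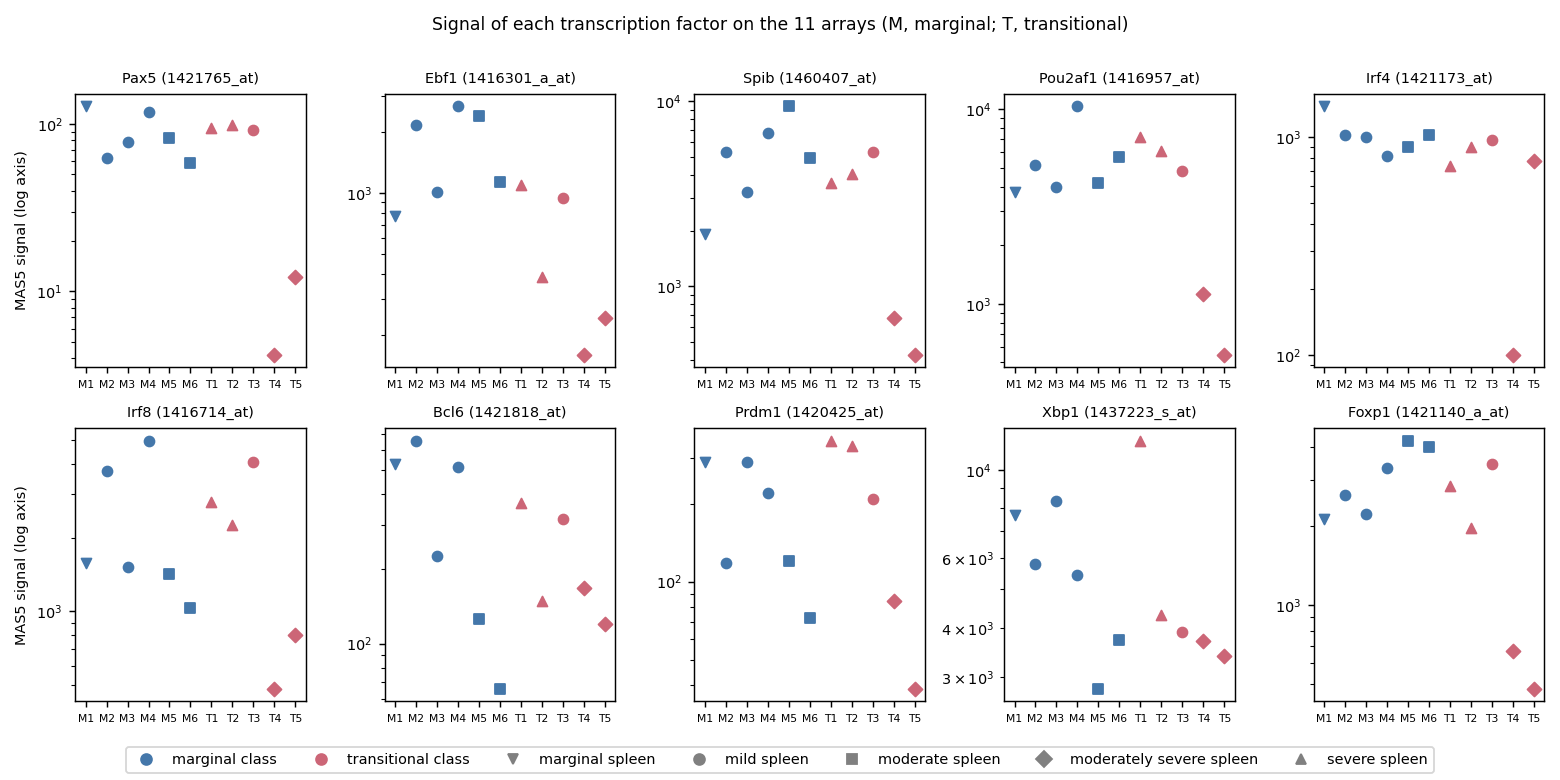
MAS5 signal of the brightest probe set of each gene (log axes, a separate scale in each panel) on the 6 marginal (M, blue) and 5 transitional (T, red) arrays, with the symbol giving the spleen grade. Transitional 4 and 5 (diamonds) lay below all other arrays for Pax5, Ebf1, Spib, Pou2af1, Irf8 and Foxp1, and not for Irf4, Bcl6, Prdm1 or Xbp1.

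The first comparison asked whether these factors differed between the severity classes. Each difference subtracts the marginal from the transitional mean of log2(signal + 16), an offset that shrinks the differences of dim probe sets, and was tested with limma on 13576 probe sets, all 24 of the set included. All 24 had a lower mean log2 value in transitional lymphomas, against 57.6% of all tested probe sets. The median difference of the 10 genes, each by its brightest probe set, was −0.79, and that of all tested probe sets was −0.06. None of the 24 passed an adjusted p of 0.05, and neither did any other probe set (0% called, smallest adjusted p = 0.999, with 454 of 13576 at an unadjusted p below 0.05). At an unadjusted p below 0.05, 7 of the 24 were lower, 3 of Ebf1, 3 of Foxp1 and 1 of Irf4, against 2.39% of all. The transitional arrays lay below every marginal array for 0 of the 24 probe sets, against 0.125% of all. Without transitional 4 and 5 the median difference of the 10 genes was 0.05, 5 of 10 genes were lower and 5 higher, and 17 of the 24 probe sets were lower.

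**Figure D2:**
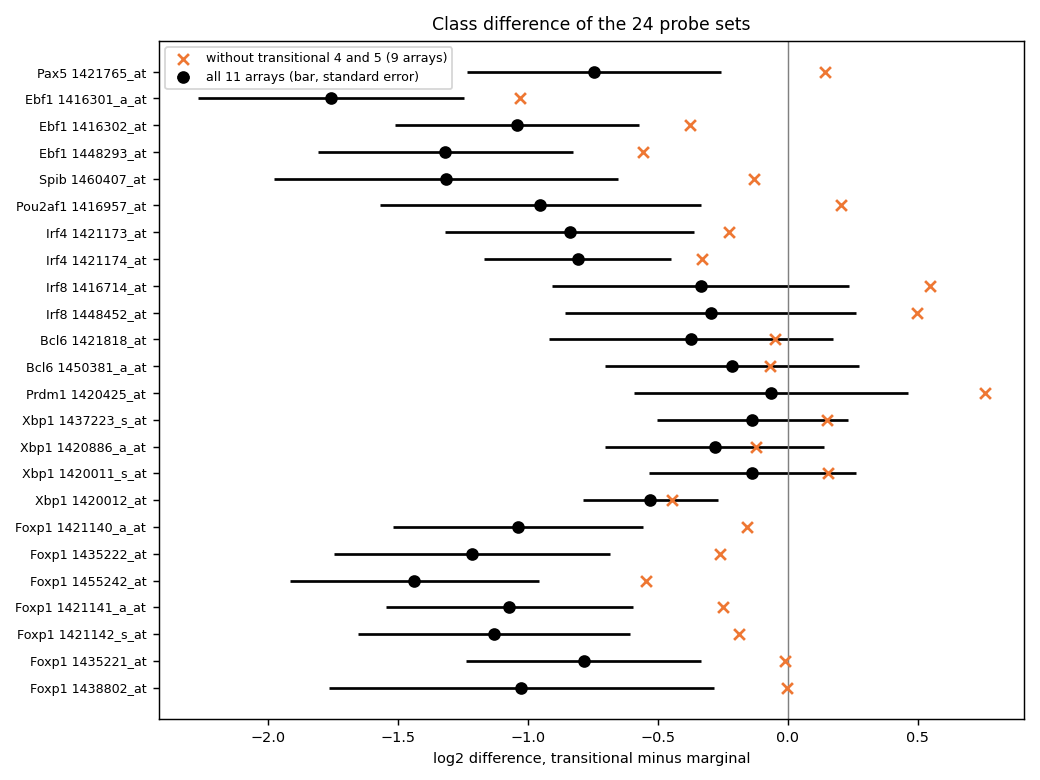
Log2 difference, transitional minus marginal, of the 24 probe sets on all 11 arrays (black, bars are standard errors) and on the 9 arrays without transitional 4 and 5 (orange crosses). All 24 black points lie below 0, and the crosses lie nearer to 0 or above it, with Ebf1 1416301_a_at the lowest cross at −1.03.

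The spleen grades of the labels gave the other comparison. A moderated F test over the 5 grades, with no order between them, called 2016 of 13576 probe sets (14.8%). Of the 24 probe sets 14 were called, and by their brightest probe set 7 of the 10 genes, Pax5, Ebf1, Spib, Pou2af1, Irf8, Prdm1 and Foxp1. Irf4 (adjusted p = 0.184), Bcl6 (0.0559) and Xbp1 (0.189) were not called. Without transitional 4 and 5 the test called 6 probe sets in all (1887 at an unadjusted p below 0.05) and 0 of the 24. Without transitional 4 alone it called 280, among them 6 of the 24, and without transitional 5 alone 12, among them 1.

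The moderately severe grade, which is transitional 4 and 5, was then set against the other 9 arrays, a contrast chosen with earlier results of these data known. It called 1147 probe sets higher (8.45%) and 2154 lower (15.9%), and with each array scaled to a common median 2339 higher and 1094 lower. Under that scaling the median difference of all probe sets was 0.16 in place of −0.19. In the main scaling 18 of the 24 probe sets and 8 of the 10 genes were lower, with a median of −1.98 over the 10 genes. The genes not called were Bcl6 and Xbp1. Both arrays lay below all the others for 15 of the 24 probe sets, against 20.3% of all tested, and above all the others for 0 of the 24, against 12.6%. With median scaling 12 of 23 tested probe sets and 4 of 9 genes, Ebf1, Spib, Pou2af1 and Foxp1, stayed past the threshold. Leaving out either array set a single array against 9, with all of the spread taken from those 9, so these fits do not show which genes hold. Without transitional 4, 9 of the 24 were called, and without transitional 5 only 1, while the estimates of all 24 were below 0 in both. With the level of the B cell surface list as a covariate 0 of the 24 and 0 of all probe sets were called (548 of 13576 at an unadjusted p below 0.05). In that fit the estimates of the 10 genes were below 0, with a median of −1.48 against −0.09 for all probe sets. So were those of 23 of the 24 probe sets. The list itself lay at −1.84 and −2.48 on transitional 4 and 5 (mean log2 deviation), and between −0.73 and 1.35 elsewhere. With only 2 arrays in the grade, the fit cannot tell grade and list level apart.

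**Figure D3:**
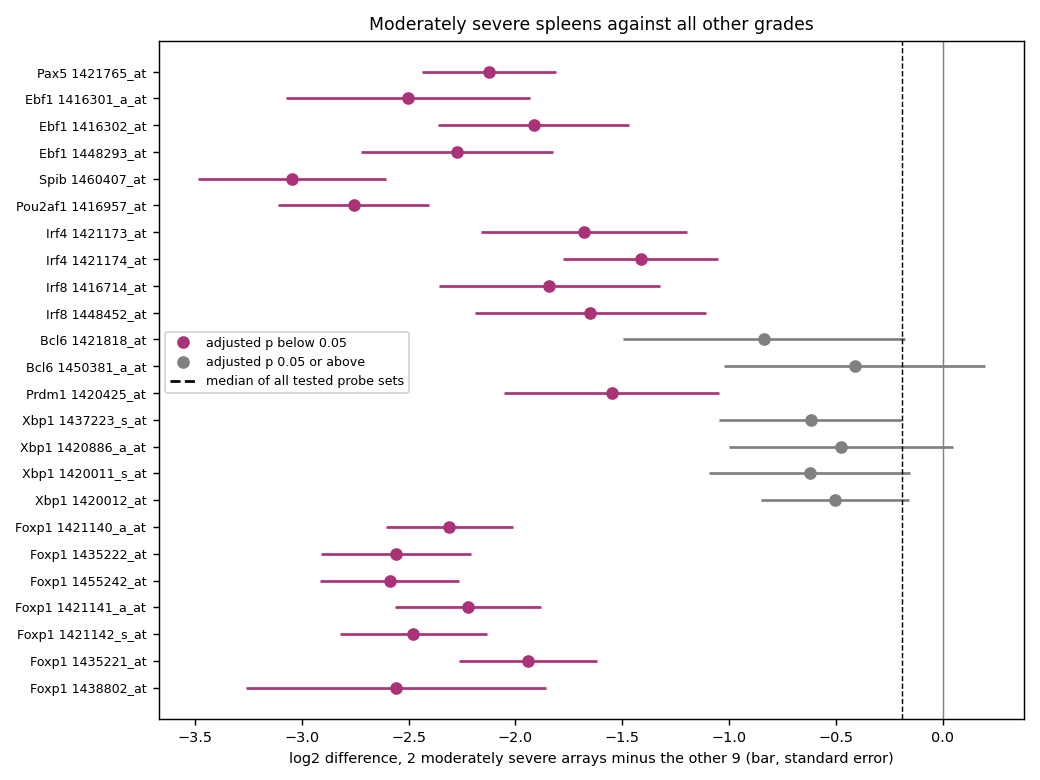
Log2 difference between the 2 moderately severe arrays and the other 9 for the 24 probe sets (points, with standard errors as bars), coloured by whether limma's adjusted p was below 0.05. The dashed line is the median of all tested probe sets at −0.19. Spib lies lowest at −3.04, and the 4 Xbp1 and 2 Bcl6 probe sets are the grey points.

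Pax5, the factor that commits cells to the B lineage, had a low signal throughout, on chromosome 4 (chr4:44524748-44710694, GRCm38.p6). Its probe set 1421765_at read from 58.7 to 127.5 in marginal lymphomas with a median of 80.05 (mean 87.9 ± 28.7, SD, n = 6). In transitional lymphomas 1 to 5 it read 94.9, 99.4, 91.9, 4.2 and 12.2. The first 3 of these lay inside the marginal range and the last 2 far below it. The class difference was −0.74 (SE 0.49, limma adjusted p = 0.999), and 0.14 without transitional 4 and 5. Against the other 9 arrays the moderately severe pair differed by −2.13 (SE 0.31, adjusted p = 0.0029). The mean of this probe set lay at the 40.2 percentile, just above the limit for testing, and it dropped out of the test with an offset of 1, quantile normalization, median scaling or the upper 40%.

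Ebf1, which opens the chromatin of B lineage genes and acts before Pax5, showed the largest class difference of the set (chr11:44618100-45008096). Its brightest probe set, 1416301_a_at, read from 773.5 to 2665 in marginal lymphomas with a median of 1646 (mean 1691 ± 808, SD, n = 6). Transitional 1 to 5 read 1095, 385, 944, 161 and 243. Transitional 2, 4 and 5 lay below every marginal array, while transitional 1 and 3 overlapped with the lower marginal ones. The class difference was −1.76 (SE 0.51, adjusted p = 0.999), and its unadjusted p of 0.0049 was rank 14 of 13576. Without transitional 4 and 5 it was −1.03 and kept its sign, and the other 2 probe sets then gave −0.38 and −0.55. The 3 probe sets followed each other over the 11 arrays (r from 0.964 to 0.974). Moderately severe spleens fell below the rest (−2.50, SE 0.57, adjusted p = 0.0109), and transitional 2, from a severe spleen, had the next lowest signal of the other 9.

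Spib, an ETS factor of mature B cells, gave the largest difference between moderately severe and other spleens (chr7:44525995-44532087). It read from 1925 to 9386 in marginal lymphomas with a median of 5132 (mean 5266 ± 2632, SD, n = 6). In transitional 1 to 5 the signal was 3613, 4052, 5325, 671 and 428. The last 2 lay below all other arrays and the lowest of the others was marginal 1. Moderately severe spleens averaged 549 and the other 9 arrays 4954 ± 2179 (SD, n = 9), a log2 difference of −3.04 (SE 0.44, adjusted p = 0.0029). The class difference was −1.31 (SE 0.66, adjusted p = 0.999) and −0.13 without transitional 4 and 5. Its F test over the grades ranked 18 of 13576 (adjusted p = 0.0102). The moderate spleens averaged 7159, the highest of the grades, from 9386 on marginal 5 and 4932 on marginal 6. The latter was the median of the 9 arrays other than transitional 4 and 5.

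Pou2af1, whose protein OCA-B is needed for germinal centres, came next (chr9:51213690-51240079). Marginal lymphomas read from 3754 to 10307 with a median of 4673 (mean 5510 ± 2464, SD, n = 6). Transitional 1 to 5 read 7176, 6108, 4828, 1124 and 549. Transitional 1 and 2 were above 5 of the 6 marginal arrays, and transitional 4 and 5 below all of them. The moderately severe pair differed from the rest by −2.76 (SE 0.35, adjusted p = 0.0025). The class difference of −0.95 (SE 0.62, adjusted p = 0.999) became 0.21 without these 2 arrays.

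Foxp1, a forkhead factor that early B cell development requires, was also lower on the moderately severe arrays (chr6:98925342-99522746). Its brightest probe set, 1421140_a_at, ran from 2125 to 4242 in marginal lymphomas with a median of 2983 (mean 3096 ± 908, SD, n = 6). The transitional arrays read 2840, 1968, 3438, 672 and 481 in order. Transitional 4 and 5 were lowest, and the moderate spleens of marginal 5 (4242) and marginal 6 (4014) were highest. The same 2 marginal arrays exceeded all others for 5 of the 7 Foxp1 probe sets and for 0 of the other 17 of the set, where 4.98% of all tested probe sets did so. The moderately severe pair differed by −2.31 (SE 0.30, adjusted p = 0.0025), and the 7 probe sets gave between −2.59 and −1.94, all of them called. Between classes Foxp1 differed by −1.04 (SE 0.48, adjusted p = 0.999) and −0.16 without transitional 4 and 5.

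Foxp1 probe set 1438802_at was low on transitional 4 and 5 like the other 6, and differed from them on some marginal arrays. It read 1475 on marginal 5 and 560 on marginal 1, against 99.7 to 368.3 on the other marginal arrays and on transitional 1 to 3. On transitional 4 and 5 it read 31.7 and 48.2. Correlations between pairs of Foxp1 probe sets ran from 0.716 to 0.983. Which transcripts of Foxp1 each probe set reads was not tested.

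**Figure D4:**
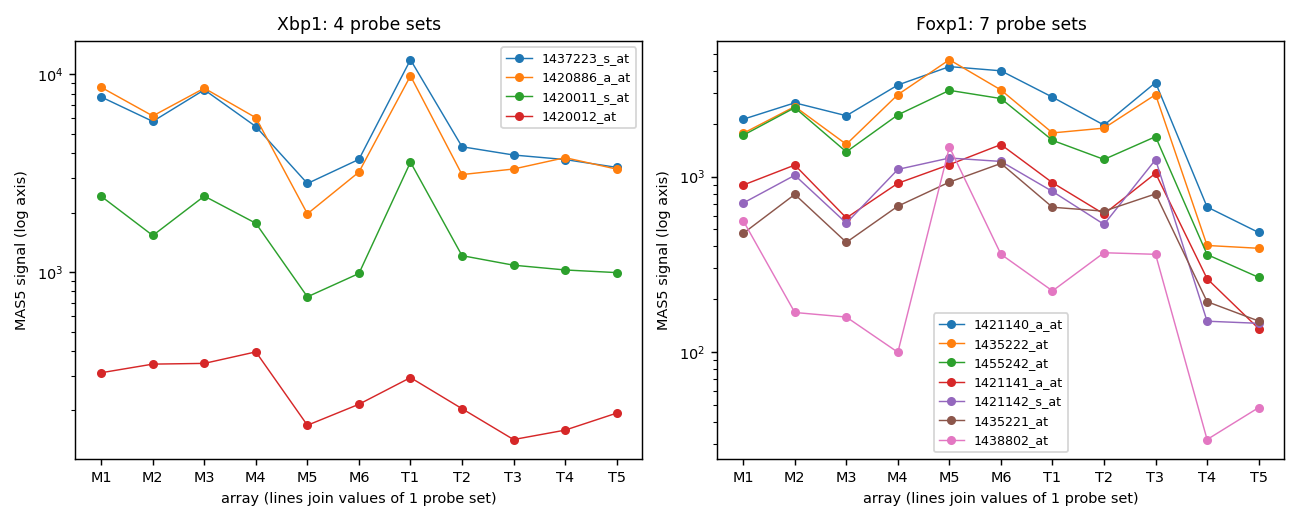
MAS5 signal (log axes) of the 4 Xbp1 probe sets (left) and the 7 Foxp1 probe sets (right) on each array, with lines that join the values of 1 probe set and imply no order. All Foxp1 lines drop on transitional 4 and 5, and 3 of the 4 Xbp1 lines peak on transitional 1.

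Irf8 and Irf4 are related factors with different places in the B cell. Irf8 acts in early and germinal centre B cells and in myeloid cells (chr8:120736358-120756694). Its probe set 1416714_at ran from 1032 to 4965 in marginal lymphomas with a median of 1550 (mean 2374 ± 1589, SD, n = 6). Transitional 1 to 5 read 2795, 2251, 4052, 485 and 806. Transitional 1 to 3 lay above the marginal median and transitional 4 and 5 below all other arrays. Between classes Irf8 differed by −0.33 (SE 0.57, adjusted p = 0.999), which turned to 0.55 without those 2. The moderately severe pair differed by −1.84 (SE 0.52, adjusted p = 0.0244), a call lost with median scaling (adjusted p = 0.0526). By grade the mild spleens averaged 3567, the moderate ones 1226 and the severe ones 2523.

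Irf4, which at low levels serves germinal centre entry and at high levels plasma cell formation, varied little over most arrays (chr13:30749233-30766981). The signal of 1421173_at ran from 820.1 to 1385 in marginal lymphomas with a median of 1013 (mean 1027 ± 194, SD, n = 6). In transitional 1 to 5 it was 736, 902, 969, 100.5 and 782. A single array, transitional 4, stood far below all others, and transitional 5 lay inside the range of the rest. The dimmer probe set, 1421174_at, gave 44.4 on transitional 4 and 146 on transitional 5, with 163 to 357 on the other 9. The moderately severe difference of −1.68 (SE 0.48, adjusted p = 0.0264) was −3.07 without transitional 5 and −0.29 without transitional 4, so that 1 array set its size. Between classes Irf4 differed by −0.84 (SE 0.48, adjusted p = 0.999), and by −0.23 without transitional 4 and 5.

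Bcl6, the repressor that keeps the germinal centre state and opposes Prdm1, ranged 9.96-fold among the marginal lymphomas (chr16:23965050-23988866). Its brighter probe set, 1421818_at, ran from 65.9 on marginal 6 to 656.2 on marginal 2, with a median of 369.7 (mean 353 ± 244, SD, n = 6). Transitional 1 to 5 read 367, 149, 317, 168 and 120.3. All 5 lay inside the marginal range. The moderate spleens of marginal 5 and 6 read 125.2 and 65.9 with this probe set and 34.5 and 70.2 with 1450381_a_at. The latter pair lay below all other arrays, as for 2 of the 24 probe sets and 2.44% of all tested, the other being Xbp1 1420011_s_at. Classes differed by −0.37 (SE 0.55, adjusted p = 0.999) and by −0.05 without transitional 4 and 5, and moderately severe spleens differed by −0.83 (SE 0.66, adjusted p = 0.368). Its slope per spleen grade rank was −0.36 (SE 0.19, adjusted p = 0.9996).

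Prdm1, the repressor that ends the B cell programme, had a low signal, from 38.6 to 351 over the 11 arrays (chr10:44437174-44528558). It read from 72.6 to 290.2 in marginal lymphomas with a median of 170.1 (mean 185 ± 95, SD, n = 6). Transitional 1 to 5 read 351, 335, 209, 84.1 and 38.6. The severe spleens of transitional 1 and 2 read highest, an order seen for 1 of the 24 probe sets and for 2.88% of all tested, shares too close to set Prdm1 apart. On the same 2 arrays T cell genes (summed signals of 20212 and 11901) and natural killer cell genes (4881 and 4938) also had their highest sums, and their part in the Prdm1 signal was not tested. Classes differed by −0.06 (SE 0.53, adjusted p = 0.999) and 0.76 without transitional 4 and 5 (adjusted p = 0.709). Moderately severe spleens differed by −1.55 (SE 0.50, adjusted p = 0.0412), although marginal 6, from a moderate spleen, read less (72.6) than transitional 4 did (84.1). That call was lost with median scaling (adjusted p = 0.0689).

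Xbp1, which drives genes of protein folding and secretion, was not called on the arrays where the B cell factors were low (chr11:5520641-5525993). Its brightest probe set, 1437223_s_at, ran from 2808 to 8356 in marginal lymphomas with a median of 5615 (mean 5633 ± 2160, SD, n = 6). Transitional 1 to 5 read 11860, 4306, 3912, 3710.1 and 3387. Transitional 1 stood above every other array. Transitional 4 and 5 read more than marginal 5 (2808) and less than all the rest, of which marginal 6 (3717.9) was nearest. Moderately severe spleens averaged 3549 and the other 9 arrays 5986 ± 2866 (SD, n = 9), a log2 difference of −0.62 (SE 0.43, adjusted p = 0.301). Classes differed by −0.14 (SE 0.37, adjusted p = 0.999), and by 0.15 without transitional 4 and 5. The 4 probe sets gave class differences from −0.53 to −0.14 and correlated with each other at 0.736 to 0.993, with 1420012_at, the dimmest, the least like the rest.

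Tested as a line over grades ranked 1 to 5, the slopes of all 24 probe sets were negative, against 54.9% of all, with a median of −0.26 per rank over the 10 genes. Without transitional 4 and 5, 17 of the 24 slopes were negative and the median was −0.02. No probe set was called (0%, smallest adjusted p = 0.9996, with 292 at an unadjusted p below 0.05). At an unadjusted p below 0.05, 0 of the 24 were lower, against 1.18% of all. The severe spleens carry the highest rank and the moderately severe ones the rank below it, and the values above do not run in that order. With class in the model 12 of the 24 slopes were negative, against 46.6% of all, and 0 probe sets were called (298 at an unadjusted p below 0.05). Without transitional 3 that model called 1145 of 13576 probe sets, 642 higher and 503 lower. Of the 24, 3 were called, all higher, and by the brightest probe set 1 of the 10 genes, Spib. Without transitional 3 the transitional class held only the moderately severe and severe grades. Its part in that slope was then the step from transitional 4 and 5 to the severe arrays, so these calls do not show a rise over all grades. The slopes of the classes differed for 0 probe sets past an adjusted p of 0.05. The smallest p of the set for that difference was 0.0091 for Xbp1 1420886_a_at (adjusted p = 0.353).

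How the factors ran together was described over the 9 arrays other than transitional 4 and 5, since 43 of the 45 pairs of genes had a lower Pearson correlation without that pair of arrays. The exceptions were Irf8 with Bcl6 and Pax5 with Bcl6. Over those 9, 26 of the 45 pairs of genes had a positive Pearson correlation, with a median of 0.11. Spib ran with Foxp1 (r = 0.76, rho = 0.68) and Ebf1 (r = 0.65, rho = 0.75), and Irf8 with Bcl6 (r = 0.71, rho = 0.68). Prdm1 ran with Xbp1 (r = 0.64, rho = 0.67) and with Pax5 (r = 0.72, rho = 0.62), and against Foxp1 (r = −0.71, rho = −0.63), Spib (r = −0.57, rho = −0.60) and Ebf1 (r = −0.53, rho = −0.52). Xbp1 likewise ran against Spib (r = −0.69, rho = −0.67) and Foxp1 (r = −0.57, rho = −0.63). Not all B cell factors did so, since Bcl6 ran with Xbp1 (r = 0.56, rho = 0.62). Pou2af1 had r = 0.10 with Prdm1 and r = 0.11 with Xbp1. Pou2af1 ran against Irf4 (r = −0.70, rho = −0.63), and so did Spib (r = −0.55, rho = −0.38). Prdm1 and Bcl6, which repress each other, had r = 0.40 and rho = 0.15. The pairs named are only some of the 45. These values describe 9 arrays with 1 scaling, and no test was made of them.

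The genes whose signal was most like each factor over all 11 arrays were looked up among 12449 probe sets of 1 gene, again as a description. Of these, 387 had r above 0.9 with Spib, 317 with Pou2af1 and 284 with Foxp1. The other factors had between 0 (Xbp1) and 50 (Ebf1). Spib and Foxp1 shared Hip1r as their nearest gene (r = 0.984 and 0.991, and 0.92 for each over the other 9 arrays). Pou2af1 had Shisa5 (0.987 and 0.92 over the other 9), Ebf1 had Ralgps2 (0.973 and 0.93), and Irf8 had H2-Oa, a chain of H2-O, which regulates peptide loading of class II molecules (0.956 and 0.94). Bcl6 had Tm6sf1 (0.956 and 0.98), Prdm1 had Pstpip1 (0.940 and 0.88) and Thy1, a T cell surface protein (0.928 and 0.86), and Xbp1 had Sdc1, the plasma cell surface proteoglycan CD138 (0.890 and 0.89). Pax5 had Samhd1 (0.947 and 0.80) and Ighm, the immunoglobulin mu chain (0.944 and 0.64). For Irf4 the likeness to Tob2 (0.904) and Ring1 (0.897) came to 0.40 and 0.04 over the other 9 arrays.

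Other genes of the pathway were read as gene lists. In the class difference 0 genes of any list were called by limma. On the moderately severe arrays 15.9% of all tested probe sets were called lower and 8.45% higher, and differences between lists were not tested. Of 19 other transcription factors of the B lineage, 9 were lower and 0 higher, among them Bach2, a repressor that delays plasma cell formation (−2.65, SE 0.43, adjusted p = 0.0035), and Ets1 (−2.44, SE 0.38, adjusted p = 0.0031). The median of the 19 was −1.82, against −0.19 for all tested probe sets. The 3 with a higher mean, named after their values were seen, were Sox4 (1.40), Myb (1.60) and Klf3 (0.40), and none of them passed. Of 11 genes that Pax5 or Ebf1 activates, 7 were lower, with Fcer2a, the IgE receptor CD23, at −2.78 (SE 0.83, adjusted p = 0.0302) and Cr2, the complement receptor CD21, at −2.08 (SE 0.91, adjusted p = 0.110), and a median of −2.49. All 6 genes of the B cell surface list were lower, Cd79a at −2.65 (SE 0.43) and Cd22 at −2.18 (SE 0.42), with a median of −2.57. The B cell surface list shares its genes other than Ms4a1 with the list of activated targets.

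Of 8 genes that Pax5 represses, 1 was lower and 0 were higher, with a median of −0.20 against −0.19 for all probe sets. The 2 of that list with the smallest p between classes, Ccl3, a chemokine, and Emb, an adhesion protein, differed by 1.05 (SE 1.26) and 0.52 (SE 0.59) on the moderately severe arrays and were not called. Of 15 plasma cell and secretory genes 1 was lower, Pdia4, a protein disulfide isomerase (−2.04, SE 0.39, adjusted p = 0.0055), and 0 were higher, with a median of −0.26. Hspa5, the chaperone BiP, differed by −0.06 (SE 0.28, adjusted p = 0.891). The immunoglobulin joining chain gene Jchain, which stands in both lists, read 10479 and 13864 on transitional 4 and 5, inside the range of the other 9 arrays (1248 to 27728). Ighm was lower by −1.20 (SE 0.20, adjusted p = 0.0038), at 12557 and 16000 against 24719 to 44425.

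Markers of other cells were read on the same arrays, against the same shares of all probe sets. T cell genes were called lower in 5 of 7, with summed signals of 1466 and 203 on transitional 4 and 5 against 2105 to 20212 on the rest, and the highest sum was on transitional 1. Erythroid genes were called higher in 2 of 6, while granulocyte precursor genes had a higher mean in 7 of 7 and 0 were called. Natural killer cell genes were called lower in 1 of 4, and macrophage (6 tested) and dendritic cell genes (4 tested) in 0. Transitional 2 alone had a high macrophage sum (28050, against 1079 to 5469 elsewhere), and transitional 1 the highest T cell sum beside its high Xbp1 and Prdm1 signals. Marginal 1 had a granulocyte precursor sum above that of both moderately severe arrays. Outside those arrays marginal 1 read lowest for Spib (1925) and Pou2af1 (3754). It read highest of all arrays for Pax5 (127.5) and for Irf4 1421173_at (1385). The mean log2 deviation of the 10 factors was 0.31 on marginal 1, against −1.62 on transitional 4 and −1.53 on transitional 5. That of the B cell surface list was −0.73 on marginal 1, its lowest outside transitional 4 and 5, which lay at −1.84 and −2.48. No signal of a listed gene was 0 on any array, the lowest being 0.7. The part of these cells in the results on the 10 factors was not tested.

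**Figure D5:**
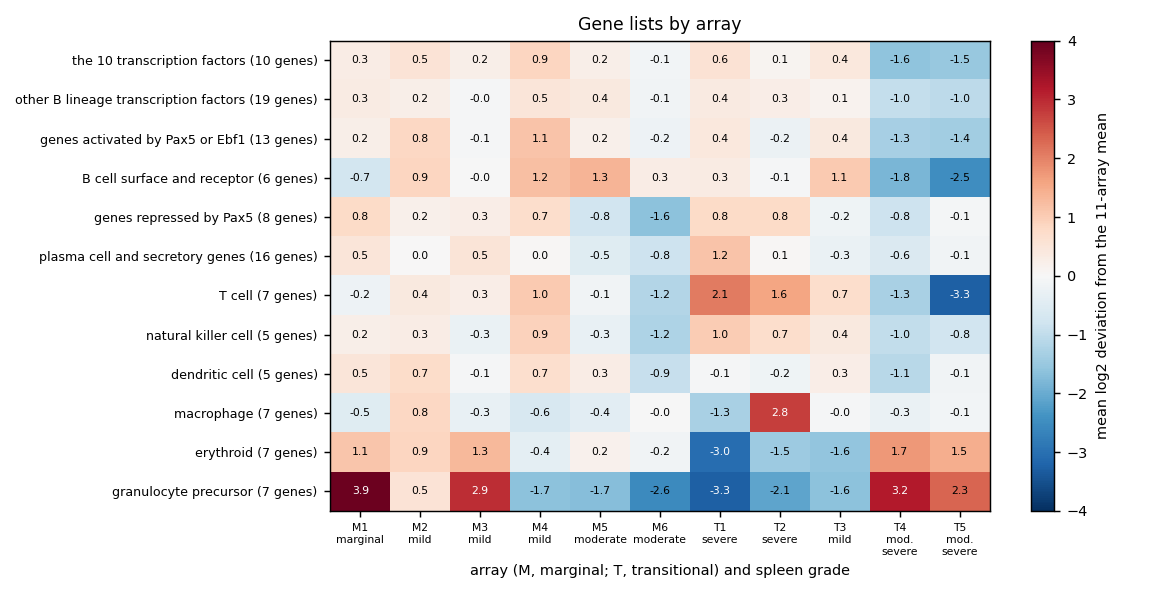
Mean log2 deviation of each gene list from its mean over the 11 arrays (colour and printed value), with lists in rows and arrays with their spleen grade in columns. The 10 factors lie at −1.6 on transitional 4 and −1.5 on transitional 5, and between −0.1 and 0.9 elsewhere, while the plasma cell and secretory list lies at −0.6 and −0.1 on those arrays and at 1.2 on transitional 1.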

How the data were processed

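RNA of 6 marginal and 5 transitional lymphomas was measured on 1 array each. Per the submitters' processing notes the deposited intensities are MAS5 signals (software version not given in the sources used here). They entered unchanged. Their 2% trimmed mean is 500.2 on all arrays, and a shift shared by most transcripts is hidden by that scaling. Of 22690 probe sets 64 controls were left out, 16 was added before log2, and the upper 60% by mean over all arrays were tested (13576). No detection calls or scan records were used, so low signals carry no bound and a batch could not be tested. The genome entered only through gene positions, gene symbols and promoter windows. Of 22626 probe sets GEO's platform annotation gave 20380 a single gene, 691 several and 1555 none, and 20351 symbols were checked through Entrez identifiers in a RefSeq table of GRCm38.p6.

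Tests used limma 3.58.1 under R 4.3.3. Linear models were moderated by eBayes with the intensity trend on, tests were two-sided, and p-values were adjusted by Benjamini-Hochberg over all tested probe sets (threshold 0.05). Scripts were tested on simulated data. Named were all probe sets of the 10 genes, the brightest standing for its gene, the 2 genes of each list with the smallest p between classes, and the 2 genes most like each factor. The genes, lists, contrast of the moderately severe spleens and fit without transitional 4 and 5 were chosen with earlier results of these data known. List genes without a single-gene probe set were not analysed here.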

Additional observations from a re-analysis of the deposited data

Results flagged for a closer look

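Of the 48 groups of signals examined over both classes, 4 held an array far from the others by Dixon's test, where chance gives about 1 in 20. All 4 were groups of the transitional class. Irf4 1421173_at read 100.5 on transitional 4, with the other 4 transitional arrays between 736 and 969. Xbp1 read 11859.9 on transitional 1 with 1437223_s_at, 9826 with 1420886_a_at and 3598.9 with 1420011_s_at, and these 3 probe sets share the gene. The fourth Xbp1 probe set, 1420012_at, read 293 on that array, inside the marginal range.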

How the results depend on the processing

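The class difference called 0 probe sets in all settings but 1. With the mean of the erythroid list as a covariate it called 669 (128 higher, 541 lower), 11 of the 24 among them and lower, of Ebf1, Spib, Pou2af1 and Foxp1. Leaving out each array in turn gave 0 calls throughout for the class difference and for the grade trend, 0 to 1145 for the trend with class in the model, 12 to 2529 for the unordered grades and 9 to 4077 for the moderately severe spleens. The unordered grades called 1292 with no filter, 3471 with array weights and 6 without transitional 4 and 5. The moderately severe contrast called 5654 with array weights, 0 with the B cell surface list as a covariate and 1966 of 7436 genes when each gene's probe sets were averaged, 8 of the 10 factors among them. It could not be fitted without transitional 4 and 5. The cause of these shifts was not tested, other than that leaving out these 2 arrays removes the grade.

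Among uncalled class differences, Prdm1 turned to 0.064 with quantile normalization, 0.036 with median scaling, 0.46 with array weights and 0.38 with the B cell surface covariate. Foxp1 1438802_at turned to 0.0052 with array weights, and Irf8 to 0.46 with both of its probe sets under the B cell surface covariate. Without transitional 4 and 5 the differences were 0.14 for Pax5, 0.21 for Pou2af1, 0.55 and 0.50 for Irf8, 0.76 for Prdm1, and 0.15 for both Xbp1 1437223_s_at and 1420011_s_at. Grade slopes turned to 0.029 for Pou2af1, 0.13 for Prdm1 and 0.012 for Xbp1 with array weights, and to 0.048 for Spib, 0.068 for Pou2af1 and 0.040 for Prdm1 with the B cell surface covariate. Without transitional 4 and 5 the slopes were 0.059 for Spib, 0.13 for Pou2af1, 0.12 for Prdm1 and 0.022 for Xbp1. The moderately severe difference of Ebf1 1416302_at was 0.0056 with the B cell surface covariate. Leaving out 1 array moved the class difference of Prdm1 between −0.33 and 0.36, of Irf8 1416714_at between −0.67 and 0.086, of Irf8 1448452_at between −0.62 and 0.15 and of Bcl6 1450381_a_at between −0.56 and 0.016, and the slope of Prdm1 between −0.26 and 0.042 and of Xbp1 between −0.26 and 0.033.

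Sample numbers are shared by both classes. With the number as a replicate block the class difference called 0 probe sets, and deviations of same-numbered samples correlated at −0.44, −0.09, −0.41, −0.45 and −0.32. The labels do not say that the numbers pair samples. These correlations cannot settle it, because spleen grade also differs within most numbers. The 11 arrays limit the precision.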
